A study of Mus musculus with 25 samples.

Results

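The genes described here encode the matrix metalloproteinases (MMP), the ADAM and ADAMTS proteases, the ADAMTS-like proteins (ADAMTSL) and the tissue inhibitors of metalloproteinases (TIMP), followed in salivary tissue of the C57BL/6.NOD-Aec1Aec2 mouse from 4 to 20 weeks of age. A gene was a member when its symbol in the array annotation began with Mmp, Adam or Adamts and a number, began with Adamtsl, or was Timp1 to Timp4, and only probe sets with 1 symbol were used. This gave 70 of the 18194 genes measured, read by 124 probe sets: 18 MMP, 28 ADAM, 15 ADAMTS, 5 ADAMTSL and 4 TIMP genes. Membership used no measured value.

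C57BL/6.NOD-Aec1Aec2 is a congenic strain in which 2 autoimmunity intervals of the non-obese diabetic (NOD) mouse, Aec1 and Aec2, were placed on the C57BL/6 background, and it is used as a model of primary Sjögren's syndrome, in which immune cells enter the salivary glands and saliva is lost. All 25 mice were untreated males of this strain, with 5 mice at each age (4, 8 and 12 weeks, then 16 and 20 weeks) and 1 Affymetrix expression array per mouse. Each RNA came from 1 lobe holding submandibular, sublingual and parotid gland. Since no other strain was analysed here, changes due to the Aec1 and Aec2 intervals and those of normal maturation cannot be told apart. The comparisons asked which members differed from the 4-week glands at each later age, which changed over the 5 ages in any way, and which differed between 16 and 20 weeks and 8 and 12 weeks.

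The extracellular matrix is the protein mesh between cells, and zinc-dependent proteases cut it. MMPs cleave collagens, gelatin and other matrix proteins, and are made as inactive precursors. The membrane-bound enzyme encoded by Mmp14 (MT1-MMP) cleaves collagen and activates the precursor of Mmp2 (gelatinase A), a step in which the inhibitor TIMP-2 serves as the bridge. ADAMs are membrane proteins that shed the outer parts of receptors and growth factors, and many of them act in sperm. ADAMTS enzymes are secreted and cut proteoglycans, procollagens and other matrix proteins, whereas ADAMTSL proteins lack the protease part. TIMPs block these enzymes, and in branching organs such as the salivary gland the balance of both is known to shape growth.

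A group of MMP genes that lie side by side gave no signal above the threshold described below, so the DNA before their starts is shown first. In RefSeq (mouse build GRCm38.p6), 9 MMP genes are neighbours on chromosome 9, in the order Mmp13, Mmp12, Mmp1b, Mmp3, Mmp1a, Mmp10, Mmp8, Mmp20 and Mmp7, and they include collagenases, stromelysins and a matrilysin. The 250 bases before the start are given below for 2 genes of this cluster and for 2 members with signal in the gland, Mmp14 and Timp3. Capitals mark exact matches, on either strand, to a TATA box (TATAAA), an AP-1 site (TGAGTCA) or a GC box (GGGCGG), none of which overlaps a match to another of the motifs.
Mmp3, chr9:7445572-7445821, plus strand: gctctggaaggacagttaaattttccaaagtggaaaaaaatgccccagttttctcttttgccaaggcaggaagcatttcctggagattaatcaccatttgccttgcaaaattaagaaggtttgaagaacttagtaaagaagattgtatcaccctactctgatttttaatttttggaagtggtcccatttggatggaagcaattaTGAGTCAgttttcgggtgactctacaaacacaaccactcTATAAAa
Mmp13, chr9:7272264-7272513, plus strand: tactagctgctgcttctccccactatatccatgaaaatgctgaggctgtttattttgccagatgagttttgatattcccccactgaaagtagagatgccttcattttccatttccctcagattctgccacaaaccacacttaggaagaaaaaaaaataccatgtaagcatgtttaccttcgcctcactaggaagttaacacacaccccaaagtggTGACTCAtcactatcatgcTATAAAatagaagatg
Mmp14, chr14:54431348-54431597, plus strand: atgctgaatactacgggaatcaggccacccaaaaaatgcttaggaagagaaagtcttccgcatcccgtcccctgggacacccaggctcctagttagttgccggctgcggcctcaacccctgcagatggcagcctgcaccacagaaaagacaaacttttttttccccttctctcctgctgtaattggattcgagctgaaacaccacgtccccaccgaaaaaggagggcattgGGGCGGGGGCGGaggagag
Timp3, chr10:86300162-86300411, plus strand: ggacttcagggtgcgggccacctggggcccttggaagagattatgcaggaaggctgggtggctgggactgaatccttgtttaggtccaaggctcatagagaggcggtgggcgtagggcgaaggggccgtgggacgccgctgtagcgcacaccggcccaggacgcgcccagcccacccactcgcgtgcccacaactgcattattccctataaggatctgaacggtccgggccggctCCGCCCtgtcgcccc

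Of the 9 clustered MMP genes, 7 held an AP-1 match, 7 a TATA match, 6 both and 0 a GC box. Windows of this length in the whole table, 32851 in all, held an AP-1 match in 4.46%, a TATA match in 12.37% and a GC box in 32.74%. These shares count windows, whereas a gene was counted when any of its windows held a match. Mmp12 and Mmp7 had more than 1 window. RefSeq windows were found for 41 of the 70 members, 46 windows in all. Among the 17 of these genes with array signal above the median, 11 held a GC box, 2 a TATA match and 1, Adam19, an AP-1 match. Among the 24 at or below the median, 8 held a GC box, 9 a TATA match and 7 an AP-1 match. All 7 of these AP-1 genes and 7 of these 9 TATA genes are the cluster genes already counted above. The other TATA genes were Adam6a and Adamts1, and the 8 with a GC box all lay outside the cluster. The split by signal is therefore not a second result beside that of the cluster. A match describes the letters of the window and not the use of a site.

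The deposited values are log2 array intensities, and a gene was counted as expressed when at least 1 of its probe sets had a mean over all arrays above 3.27, the median of all probe sets. By this rule 30 members were expressed and 40 were not: 7 of the 18 MMP, 11 of the 28 ADAM, 5 of the 15 ADAMTS, 4 of the 5 ADAMTSL and 3 of the 4 TIMP genes were expressed. In the chromosome 9 cluster 0 of the 9 genes were expressed, and their log2 fold changes against 4 weeks lay between -0.11 and 0.09 at every age. Mmp1a and Mmp1b are close copies, so their probe sets may share signal. Mmp3 (stromelysin-1) stood for this cluster, with values of 2.50, 2.79, 2.55, 2.56 and 2.52 in the 5 mice at 4 weeks and from 2.45 to 2.54 in the mice of 8, 12 and 16 weeks. At 20 weeks it had 2.55, 2.45, 3.14, 2.49 and 2.69, with mouse 3 the highest of all 25. Of the 40 members that were not expressed, 38 (all but Adamts12 and Adam21) stayed within 0.2 of the 4-week value on the log2 scale at each later age, with median fold changes of -0.04, -0.05, -0.02 and 0.03 at 8, 12, 16 and 20 weeks. A probe set at this floor cannot show a further fall.

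Array medians lay between 3.17 and 3.64. Mouse 3 of 20 weeks had the highest median, 3.64, and the lowest upper quartile, 5.19. The part of this array-wide shift in the values of single genes in that mouse was not tested. Markers of salivary acinar cells (5 genes, mean log2 value 11.4 to 13.4 over the 25 mice) and of salivary ducts (3 genes, 10.8 to 12.8) were high, as the tissue label says. Mouse 3 of 20 weeks stood apart, with a median correlation of 0.887 with the other arrays of its age, and among the 30 expressed members it was the highest of its age in 20 and the lowest in 7. Mouse 5 of 20 weeks (0.974) and mouse 2 of 16 weeks (0.974) had the next lowest correlations. Salivary lymph nodes had been cut away from the lobe. The mean of 2 lymph node markers (Glycam1 and Cr2) was 5.75, 6.01 and 5.34 in mice 3, 4 and 5 of 4 weeks, 4.76 in mouse 4 of 8 weeks, 6.15 and 6.00 in mice 3 and 4 of 16 weeks and 5.79 in mouse 3 of 20 weeks, against 3.02 to 3.98 in the other 18 mice. Of the 2 markers 1 counted as expressed. Whether these marker values come from lymph node tissue or from immune cells within the gland was not tested. Values that rest on the arrays of high lymph node markers are given with and without them.

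Mmp14 and Mmp2 were lower than at 4 weeks at all 4 later ages. In the F-test over the 5 ages (limma, Benjamini-Hochberg adjustment over all 18194 genes, threshold 0.05), 5 of the 70 members changed (7.14%), against 4.66% of all genes. These were Adamts12, Mmp14, Mmp9, Mmp2 and Adamts5. The B-statistic exceeded 1.5 for 3 members, Adamts12, Mmp2 and Mmp14 (4.29%), against 1.92% of all genes. Against 4 weeks, 3 members fell at 8 weeks (background 0.78%), 6 at 12 weeks (1.36%), 3 at 16 weeks (1.68%) and 3 at 20 weeks (1.52%). At 8 weeks 0 members rose (background 1.48%), with 11 members at an unadjusted p under 0.05 in either direction. At 12 weeks 1 member rose, where 5.66% of all genes did, at 16 weeks 0 rose (1.71%), with 8 members at an unadjusted p under 0.05 in either direction, and at 20 weeks 1, Mmp9, passed as higher (1.14%), by a choice of probe set described with that gene. The same 4-week mice serve all 4 comparisons, so these counts are not independent of each other. The share of all genes at an unadjusted p under 0.05 was not counted, so the unadjusted numbers do not set the members apart. The median fold change of the 70 members was -0.05 at 8 weeks and -0.06 at 12 weeks, and that of all genes was -0.03 at both ages. The scaling of the arrays matters for small values: the median of all expressed genes was 0.14 at 12 weeks as deposited and -0.01 after quantile normalization, and 0.10 and -0.03 at 8 weeks. Genes higher and lower at 12 weeks then numbered 641 and 500, in place of 1029 and 247. Quantile normalization turned the sign of 0 of the 17 called fold changes of members, and the 12-week values of Adam19, Adamts9 and Adamtsl4 no longer passed (adjusted p = 0.0911, 0.126 and 0.0531).

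**Figure D1:**
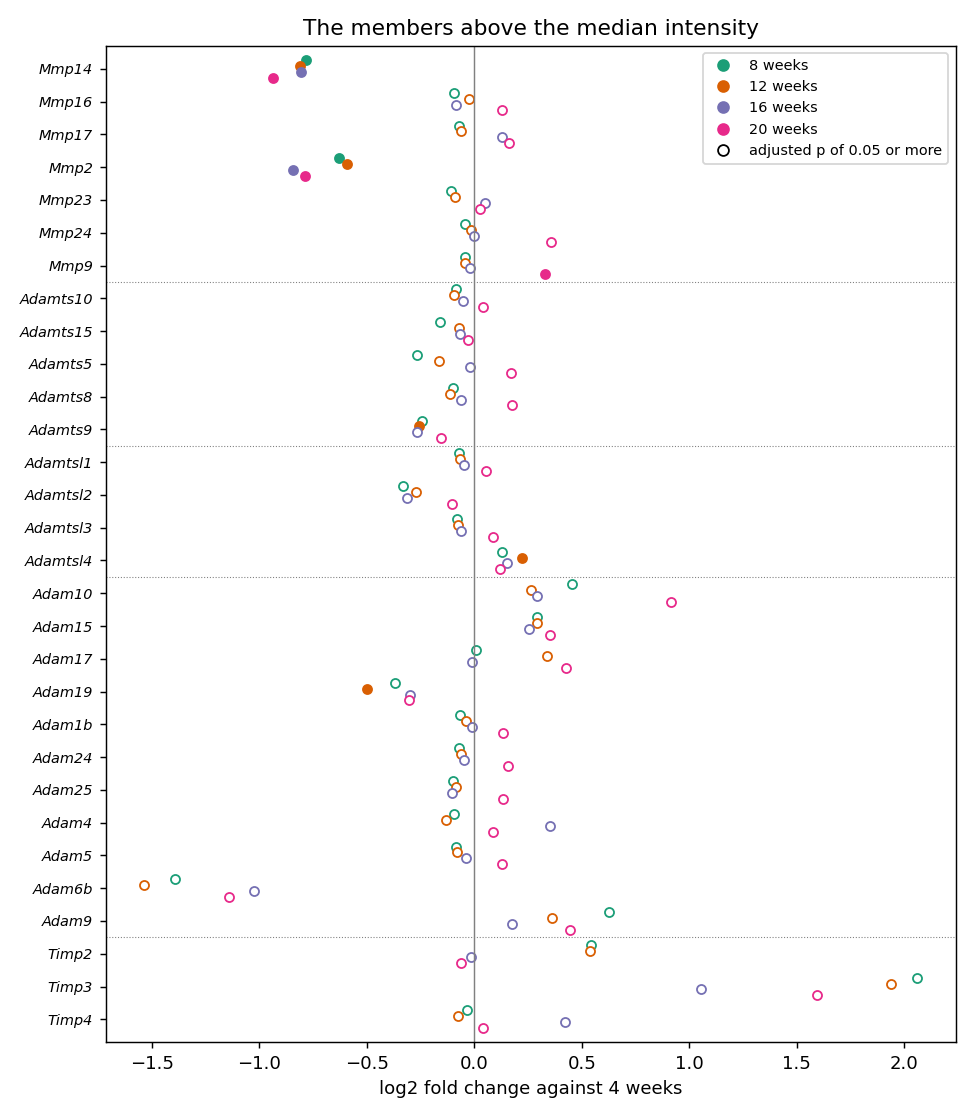
log2 fold change against 4 weeks (horizontal axis) of the 30 expressed members, grouped by dotted lines into MMP, ADAMTS, ADAMTSL, ADAM and TIMP genes, with 1 point per later age and filled points for an adjusted p under 0.05. Mmp14 and Mmp2 are filled at all 4 ages on the left, Timp3 lies farthest to the right without a filled point, and most other members sit close to 0.

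Mmp14 had values of 5.11, 5.65, 4.99, 4.56 and 4.75 in the 5 mice at 4 weeks. It was 4.24, 4.36, 4.23, 4.22 and 4.11 at 8 weeks, and 4.10, 4.21, 4.26, 4.18 and 4.26 at 12 weeks. At 16 weeks the mice had 4.46, 3.97, 4.08, 4.18 and 4.35, and at 20 weeks 4.53, 4.44, 3.93, 3.99 and 3.48. At 8, 12, 16 and 20 weeks, 7, 25, 4 and 3 members lay wholly below the 4-week mice, as did 4.05%, 21.1%, 2.16% and 1.35% of all genes. The share of genes so split at all 4 ages was not counted. For Mmp14 every mouse of the 4 later ages lay below the lowest 4-week mouse. The mean fell from 5.01 ± 0.41 (SD, n = 5) to 4.23 ± 0.09, 4.20 ± 0.06, 4.21 ± 0.20 and 4.07 ± 0.42, which is 58.2%, 57.0%, 57.3% and 52.2% of the 4-week level on the linear scale. The log2 fold changes were -0.78, -0.81, -0.80 and -0.94 (SE 0.18 each), with limma adjusted p of 0.0199, 0.00729, 0.0112 and 0.00387. The 16- and 20-week mice differed from those of 8 and 12 weeks by -0.07 (adjusted p = 0.640).

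The 3 probe sets of Mmp14 did not move alike. The brightest, 1448383_at, went down by -1.17, -1.33, -1.44 and -2.40 at 8, 12, 16 and 20 weeks, and only the 20-week difference passed when it stood for the gene (limma adjusted p = 0.164, 0.0546, 0.0596 and 0.00245). The second, 1416572_at, had differences of -1.04, -0.97, -0.92 and -0.62 with adjusted p of 0.102 or more at 8, 16 and 20 weeks and 0.0760 at 12 weeks, and the third, 1440920_at, stayed between -0.14 and 0.21. Without the 7 arrays of high lymph node markers, which leaves 2 mice at 4 weeks, the fold changes of Mmp14 were -1.15, -1.18, -1.12 and -1.27 with adjusted p of 0.0365, 0.0117, 0.0373 and 0.0115. The 8-week call was lost when mouse 2 of 4 weeks (-0.62, adjusted p = 0.0543) or mouse 5 of 8 weeks (-0.75, adjusted p = 0.0674) was left out.

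Mmp2 had values of 5.43, 5.85, 5.48, 5.29 and 5.83 at 4 weeks, and 4.94, 4.79, 4.69, 4.90 and 5.41 at 8 weeks. It had 4.76, 5.32, 5.36, 4.72 and 4.77 at 12 weeks, 5.25, 4.54, 4.57, 4.66 and 4.64 at 16 weeks and 4.83, 4.99, 4.61, 4.73 and 4.79 at 20 weeks. The 16- and 20-week mice all lay below the 4-week mice (2.16% and 1.35% of all genes did so). By contrast, 1 mouse of 8 weeks and 2 mice of 12 weeks lay within the 4-week range. Mmp2 fell by 0.63, 0.59, 0.84 and 0.79 on the log2 scale (SE 0.16 each, limma adjusted p = 0.0428, 0.0305, 0.00449 and 0.00861), to 64.6%, 66.4%, 55.8% and 57.9% of the 4-week level. Both of its probe sets were lower at each later age, by -0.40 to -0.66 in 1416136_at and -0.78 to -1.02 in 1439364_a_at. The 16- and 20-week calls held when any 1 mouse was left out. The 8-week call was lost in 13 of 25 such analyses (adjusted p up to 0.118). The 12-week call was lost in 5 of them, without mouse 2 or 5 of 4 weeks or mouse 1, 4 or 5 of 12 weeks (-0.54 to -0.52, adjusted p 0.0686 to 0.0899). Without the 7 arrays of high lymph node markers the fold changes stayed at -0.68, -0.66, -0.83 and -0.81, and none passed (adjusted p = 0.334, 0.166, 0.183 and 0.134).

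**Figure D2:**
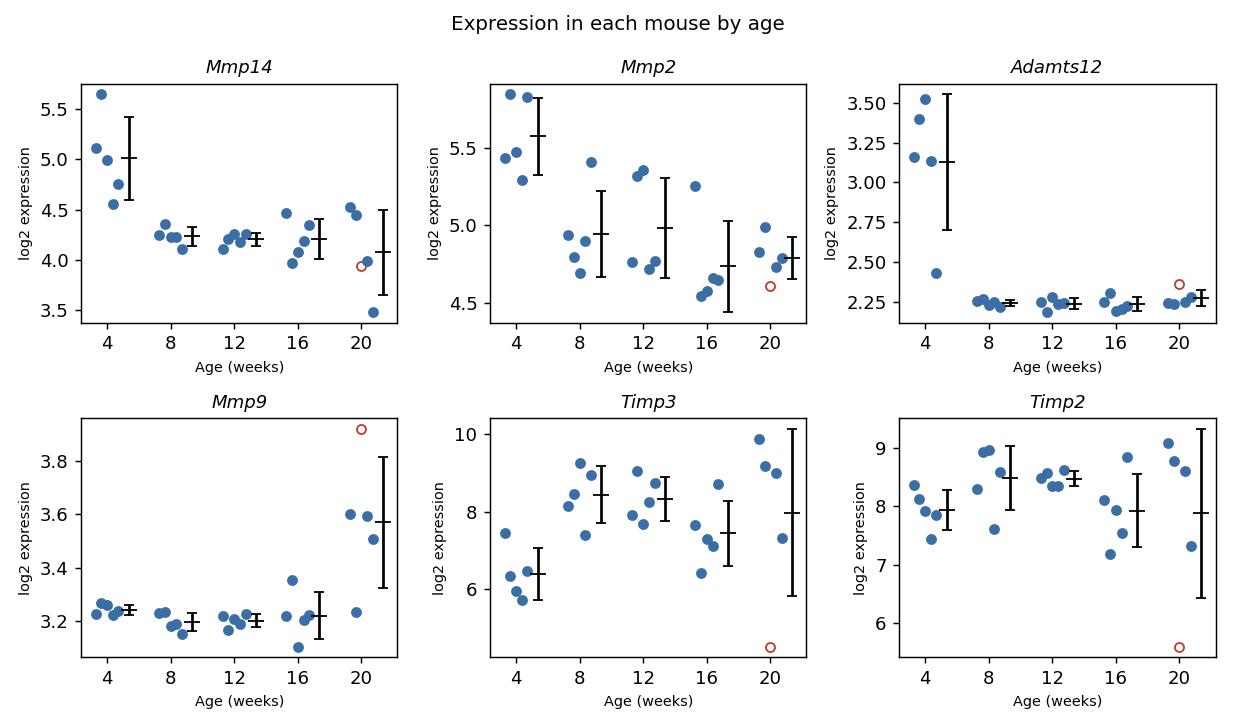
log2 expression (vertical axis) of 6 members in each mouse against age (horizontal axis, weeks), where points are mice, black bars are the mean ± SD of 5 mice and the open red circle is mouse 3 of 20 weeks. Mmp14 lies below its 4-week values in every later mouse, Adamts12 lies between 2.19 and 2.36 after 4 weeks, Mmp9 lies above all younger mice in 4 of 5 mice at 20 weeks, and the open circle is the lowest Timp3 and Timp2 value of all 25 mice.

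Mesenchymal cells are the usual source of Mmp2 and Mmp14, and a fibroblast marker list moved with them. Its 6 genes averaged 7.13 to 7.36 over the mice at 4 weeks, 6.36 to 6.94 at 8, 6.37 to 6.80 at 12, 5.99 to 7.10 at 16 and 5.78 to 6.96 at 20 weeks, and all 6 were expressed. Of the 6, 1, 2, 2 and 1 fell at 8, 12, 16 and 20 weeks, and Pdgfrb (a receptor of mesenchymal cells) was lower at each age (-1.04, -1.11, -1.17 and -1.19). The mean of 4 markers of dividing cells was at most 5.78 at 4 weeks and between 2.93 and 4.06 at the later ages, below every 4-week mouse, and 3 of the 4 fell at every age. The part of these shifts in the fall of Mmp2 and Mmp14 was not tested. In whole glands, fewer cells of a type and less RNA per cell cannot be told apart.

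The other gelatinase gene, Mmp9, took a different course. At 4 weeks its values were 3.23, 3.27, 3.26, 3.23 and 3.24, and all mice of 8 and 12 weeks lay between 3.15 and 3.23. The 16-week mice had 3.22, 3.35, 3.10, 3.20 and 3.22, and the 20-week mice 3.60, 3.23, 3.92, 3.59 and 3.51. Thus 4 of the 5 mice at 20 weeks exceeded every younger mouse, and mouse 2 did not. The 20-week difference was 0.33 ± 0.08 (SE, limma adjusted p = 0.0180), or 126% of the 4-week level, and 0.24 without mouse 3 of 20 weeks, the highest (adjusted p = 0.00985). These values rest on 1416298_at alone, which counted as expressed only through the 20-week mice: its means were 3.24, 3.20, 3.20 and 3.22 at the 4 younger ages, below the threshold of 3.27, and 3.57 at 20 weeks. The choice of this probe set therefore used the difference itself. The other probe set, 1448291_at, differed by 0.01 and was dropped by the threshold. Averaging both gave 0.17 (adjusted p = 0.0545), so the call depends on that choice, and leaving out the 7 arrays of high lymph node markers gave 0.24 (adjusted p = 0.173). Of 5 markers of neutrophils, a known source of this enzyme, 0 were expressed, and their mean was 2.53 to 3.01 over the 20-week mice against 2.57 to 3.55 at 4 weeks.

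The remaining expressed MMP genes, Mmp16, Mmp17, Mmp23 and Mmp24, differed from 4 weeks by -0.11 to 0.36 and passed no test. Mmp16, Mmp17 and Mmp24 encode further membrane-type enzymes. Of the 4 membrane-type MMP genes measured here, all expressed, Mmp14 was the 1 that changed. Mmp16 and Mmp24 counted as expressed through 1 probe set each (means 3.61 and 3.73), and their other probe sets had means of 2.88 or below.

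Among the ADAMTS genes, Adamts12, whose enzyme cuts cartilage oligomeric matrix protein, had the smallest F-test p of all members (adjusted p = 0.000162). The 4-week mice had 3.16, 3.40, 3.52, 3.13 and 2.43, and each of the 20 later mice lay between 2.19 and 2.36, below all of them. The log2 fold change was -0.88, -0.89, -0.89 and -0.85 (SE 0.12, limma adjusted p from 0.000128 to 0.000242). Adamts12 was not counted as expressed. The whole difference lay in 1439827_at, which was lower by -1.71 to -1.76, whereas 1446666_at moved by -0.04 to 0.01. At the floor of the array the size of such a fall is not known. It was -1.02 to -1.04 without the 7 arrays of high lymph node markers (limma adjusted p of 8.56e-08 or below). That fit leaves only 2 mice at 4 weeks, with 3.16 and 3.40, and drops the lowest 4-week value, 2.43.

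Adamts5, an aggrecanase, changed in the F-test (adjusted p = 0.0483, just under the threshold) but passed in no comparison with 4 weeks (adjusted p of 0.174 or more). Of the 5 members changed on all arrays, 4 still were after quantile normalization, 4 with the replicate block and 4 without mouse 3 of 20 weeks. Which member was lost is not given here. Without that mouse, Adamts5 differed from 4 weeks by -0.26, -0.16, -0.02 and 0.12 and did not pass (limma adjusted p of 0.0896 or more). The 4-week mice had 3.99, 4.05, 4.29, 4.29 and 4.07. The values were 3.85, 3.89, 3.77, 3.97 and 3.89 at 8 weeks, 4.03, 4.14, 3.92, 3.90 and 3.87 at 12 weeks, 4.22, 3.99, 4.46, 4.03 and 3.88 at 16 weeks, and 4.40, 4.31, 4.51, 4.08 and 4.22 at 20 weeks. The means went from 3.87 at 8 weeks to 4.31 at 20 weeks, with every 20-week mouse above every 8-week mouse. The difference of 16 and 20 weeks from 8 and 12 weeks was 0.29 (unadjusted p = 0.000350, adjusted p = 0.0630). In that comparison 0 members passed in either direction (background 0.286% lower and 0.0055% higher), and 5 had an unadjusted p under 0.05. For this unadjusted number, and for the split of the 20-week from the 8-week mice, the share of all genes was not counted.

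Adamts9, which cuts aggrecan and versican, fell at 12 weeks by 0.26 (adjusted p = 0.0454). Its 4-week mice had 4.31, 4.54, 4.45, 4.19 and 4.59, and the 12-week mice 4.16, 4.14, 4.17, 4.16 and 4.17, all below them. The mice of 8 weeks had 4.22, 4.18, 4.16, 4.16 and 4.15, those of 16 weeks 4.09, 4.21, 4.11, 4.17 and 4.16, and those of 20 weeks 4.13, 4.15, 4.62, 4.19 and 4.20. Mouse 3 of 20 weeks was the highest of all 25. Without it Adamts9 also fell at 8, 16 and 20 weeks, by 0.24, 0.27 and 0.25 (adjusted p = 0.00789, 0.00276 and 0.00776). Of its 3 probe sets, 1437785_at was lower by -0.46 to -0.52 and passed at each age, and the brightest, 1431399_at, stayed between -0.03 and 0.16. The 12-week call was lost in 18 of the 25 analyses that left out 1 mouse.

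Adamtsl4, an ADAMTS-like protein of elastic microfibrils, was the 1 member that rose at 12 weeks, by 0.22 (adjusted p = 0.0431). The 4-week mice had 3.76, 3.52, 3.81, 3.62 and 3.81 and the 12-week mice 4.03, 3.89, 4.10, 3.80 and 3.81, so the groups overlapped. It was 3.80 to 3.91 at 8 weeks, 3.78 to 4.06 at 16 weeks and 3.77 to 3.89 at 20 weeks. The call was lost in 12 of the 25 analyses without 1 mouse (adjusted p up to 0.131), without the 7 arrays of high lymph node markers (0.29, adjusted p = 0.0971) and among genes above the median only (adjusted p = 0.0745).

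Among the ADAM genes 2 passed a test. Adam19, a sheddase of neuregulin, fell at 12 weeks by 0.50 (adjusted p = 0.0494) from 3.98, 4.04, 4.55, 5.09 and 4.01 to 3.96, 3.55, 3.97, 3.72 and 3.96. Other ages lay between 3.91 and 4.32. The 2 highest values, 5.09 and 4.55, belonged to mice 4 and 3 of 4 weeks, which also had the highest lymph node markers of that age, and the 20-week mouse of high lymph node markers had the highest Adam19 of its age, 4.32. Mice 3 and 4 of 16 weeks, with marker means as high, had 4.14 and 3.97, against 3.97, 4.12 and 3.97 in mice 1, 2 and 5 of that age. Adam21, which like many ADAM genes is known from testis and was not counted as expressed, fell by 0.45 at 12 weeks (adjusted p = 0.0117) from 2.99, 3.06, 3.47, 3.50 and 3.30 to 2.99, 2.39, 2.97, 2.74 and 2.97. Its 3 highest values were those of mice 3, 4 and 5 of 4 weeks, whereas mice 3 and 4 of 16 weeks had 2.92 and 2.98, against 2.97, 3.15 and 2.97 in the other mice of that age. The part of lymph node tissue in these values was not tested. The values at 8, 16 and 20 weeks ran from 2.92 to 3.23. Without the 7 arrays of high lymph node markers, the 12-week differences were -0.18 for Adam19 (adjusted p = 0.405) and -0.21 for Adam21 (adjusted p = 0.468). The Adam19 call was lost in 21 of the 25 analyses without 1 mouse and the Adam21 call in 0.

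**Figure D3:**
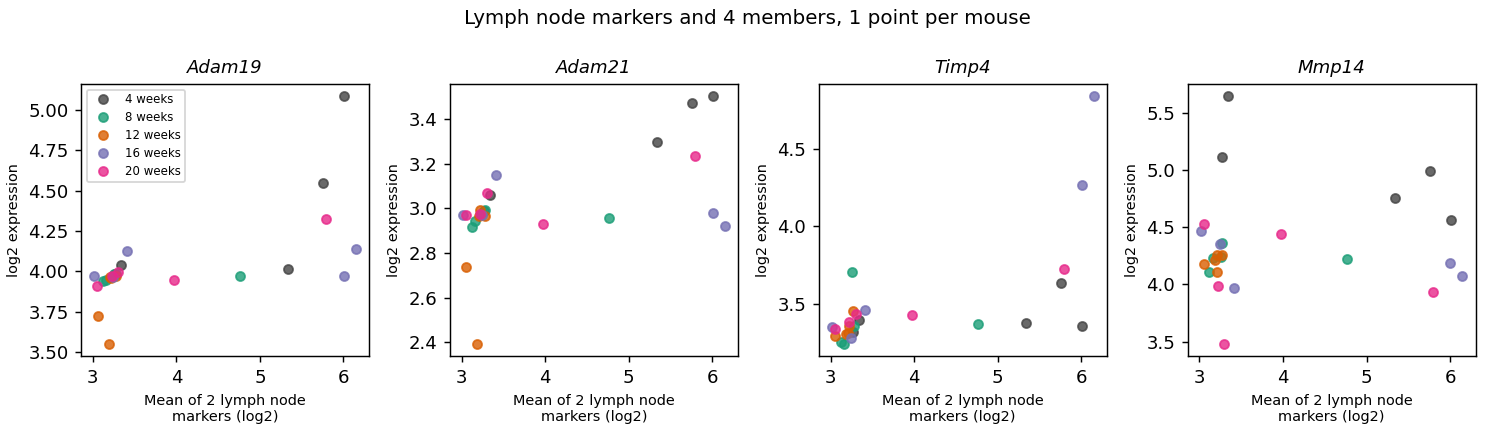
log2 expression of Adam19, Adam21, Timp4 and Mmp14 (vertical axes) against the mean log2 value of the lymph node markers Glycam1 and Cr2 (horizontal axis), with 1 point per mouse coloured by age. The highest Adam19 and Adam21 values are those of 4-week mice with marker means above 5, while 16-week mice with marker means of 6.15 and 6.00 lie among the rest, the 2 highest Timp4 values are those of these 16-week mice, and the highest Mmp14 values are those of 4-week mice at both ends of the axis.

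Adam10 and Adam17 encode the best known sheddases, alpha-secretase and TNF-converting enzyme. Adam10 had 5.80, 5.24, 5.43, 5.07 and 5.19 at 4 weeks and 7.09, 6.87, 5.31, 6.57 and 5.48 at 20 weeks, with 5.24 to 6.19 between. Mice 1, 2 and 4 of 20 weeks exceeded all others and mice 3 and 5 did not. The 20-week difference was 0.92 ± 0.27 (adjusted p = 0.0725), passing under several alternatives, with 1.15 without mouse 3 (adjusted p = 0.00593), 1.11 without mouse 5 (adjusted p = 0.0225) or 1.03 without mouse 1 of 4 weeks (adjusted p = 0.0468). It was 0.98 and did not pass without the 7 arrays of high lymph node markers (adjusted p = 0.211). Adam17 differed by 0.01, 0.34, -0.01 and 0.43 with an adjusted p of 0.550 or more. The remaining ADAM genes passed no test, and they include the sperm surface genes Adam2 and Adam3, which were not expressed.

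Adam15 and Adam6b, picked after their values were seen, also turned on mouse 3 of 20 weeks. Adam6b lies in the immunoglobulin heavy chain locus, as background, and its 4-week mice had 4.42, 5.84, 4.75, 6.70 and 5.13. Later mice had 3.28 to 4.39, except mouse 2 of 16 weeks with 6.28 and mouse 3 of 20 weeks with 5.93. The differences of -1.39, -1.54, -1.03 and -1.14 did not pass, and without mouse 3 of 20 weeks those at 8, 12 and 20 weeks did (-1.39, -1.54 and -1.57, adjusted p = 0.0473, 0.0150 and 0.0293). Adam6b without the 7 arrays of high lymph node markers, which include this mouse, had -1.13, -1.30, -0.46 and -1.33 and passed at no age (adjusted p of 0.223 or more). Adam15, a disintegrin of epithelial and endothelial cells, rose without mouse 3 of 20 weeks by 0.29, 0.29 and 0.48 at 8, 12 and 20 weeks (adjusted p = 0.0467, 0.0258 and 0.00352). It had 0.23, 0.23 and 0.41 at these ages without the 7 arrays and did not pass (adjusted p = 0.737, 0.434 and 0.151).

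The 4 inhibitor genes passed no test when all 25 arrays were used with equal weight. Timp3, whose protein binds to the matrix itself and blocks MMP, ADAM and ADAMTS enzymes, had the largest differences of all members. At 4 weeks the mice had 7.45, 6.33, 5.96, 5.72 and 6.46. They had 8.14, 8.45, 9.26, 7.40 and 8.96 at 8 weeks, 7.90, 9.05, 7.67, 8.25 and 8.74 at 12 weeks, 7.65, 6.41, 7.29, 7.12 and 8.72 at 16 weeks, and 9.87, 9.17, 4.51, 9.01 and 7.31 at 20 weeks. All 12-week mice exceeded all 4-week mice, as in 12.5% of all genes. At 8 weeks 1 mouse fell just inside the 4-week range. At 20 weeks 3 mice were above 9 while mouse 3 was the lowest of all 25. The fold changes were 2.06, 1.94, 1.06 and 1.59 (SE 0.71 each, adjusted p = 0.143, 0.102, 0.595 and 0.334), or 417%, 384%, 208% and 302% of the 4-week level.

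Without mouse 3 of 20 weeks, the Timp3 fold changes were 2.06, 1.94, 1.06 and 2.46 (SE 0.48 at 8, 12 and 16 weeks and 0.51 at 20 weeks), with adjusted p of 0.0138, 0.00868, 0.209 and 0.00535. In that analysis Timp3 thus rose at 8, 12 and 20 weeks. Each of the 4 probe sets was higher at each later age, by 0.44 to 2.37. Without the 7 arrays of high lymph node markers the differences were 1.81, 1.43, 0.70 and 1.95, and none passed (adjusted p of 0.207 or more). A list of 4 smooth muscle and myoepithelial markers moved with Timp3: its mean was 8.83 to 10.59 at 4 weeks, at most 11.28 at 8, 11.17 to 11.40 at 12 and 10.47 to 11.51 at 16 weeks, and 10.57 to 11.39 at 20 weeks apart from mouse 3 with 7.75. Of the 4, 0, 2, 0 and 0 rose at 8, 12, 16 and 20 weeks, namely Cnn1 and Tagln at 12 weeks. Its part in the Timp3 differences was not tested.

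Timp2, the inhibitor that also takes part in the activation of Mmp2, had 8.37, 8.12, 7.92, 7.44 and 7.84 at 4 weeks and 8.31, 8.93, 8.96, 7.62 and 8.60 at 8 weeks. It had 8.48, 8.58, 8.35, 8.35 and 8.62 at 12 weeks, 8.11, 7.19, 7.93, 7.54 and 8.85 at 16 weeks and 9.09, 8.78, 5.60, 8.61 and 7.31 at 20 weeks. The groups overlapped at every age. The differences of 0.54, 0.54, -0.02 and -0.06 did not pass (SE 0.47 each, adjusted p of 0.586 or more), and the 20-week value was 0.51 without mouse 3 (adjusted p = 0.430). It turned to 0.71 with array weights (adjusted p = 0.0284) and 0.89 without the 3 arrays of lowest correlation (adjusted p = 0.0303), and was 0.20 without the 7 arrays of high lymph node markers (adjusted p = 0.976). The expressed probe sets of Timp2 did not move alike. The means at 4, 16 and 20 weeks were 9.73, 10.31 and 9.90 in 1460287_at and 9.56, 10.07 and 9.80 in 1454677_at. They were 8.79, 8.61 and 7.58 in 1433662_s_at, 6.94, 6.57 and 7.20 in 1450040_at and 4.68, 4.05 and 4.91 in 1420924_at.

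Timp1, an inhibitor that inflammation is known to induce in many tissues, was not expressed by the rule used here. Its values were 2.19, 2.21, 2.21, 2.20 and 2.21 at 4 weeks, 2.18, 2.19, 2.16, 2.17 and 2.15 at 8 weeks and 2.18, 2.14, 2.19, 2.16 and 2.17 at 12 weeks. They were 2.18, 2.25, 2.12, 2.17 and 2.17 at 16 weeks and 2.17, 2.14, 2.35, 2.18 and 2.23 at 20 weeks. All 25 mice lay within this narrow band at the floor of its single probe set, with differences from 4 weeks of -0.04 to 0.01.

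Timp4 had 3.32, 3.40, 3.64, 3.36 and 3.38 at 4 weeks, 3.71, 3.36, 3.24, 3.37 and 3.26 at 8 weeks and 3.36, 3.31, 3.46, 3.29 and 3.31 at 12 weeks. At 16 weeks the mice had 3.35, 3.46, 4.84, 4.27 and 3.28 and at 20 weeks 3.34, 3.43, 3.72, 3.38 and 3.43. The 2 high values belonged to mice 3 and 4 of 16 weeks, whose lymph node markers (6.15 and 6.00) and B cell markers (8.98 and 8.98, mean of 3 genes, against 3.22 to 5.89 in the other 23 mice) lay among the 3 highest of all 25 mice. The 16-week difference of 0.42 (adjusted p = 0.349) was 0.00 without the 7 arrays of high lymph node markers, which include both mice. Fat markers (mean of 2 genes) were 8.5 and 8.41 in mice 3 and 4 of 16 weeks, the highest of their age. At 4, 8 and 12 weeks the mouse of highest Timp4 had the highest fat markers of its age (8.86, 8.97 and 10.3). At 20 weeks mouse 3, with the highest Timp4, had the lowest (4.74). Mouse 4 of 4 weeks had lymph node markers of 6.01 and a Timp4 of 3.36. The part of fat or lymph node tissue in the Timp4 values was not tested.

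**Figure D4:**
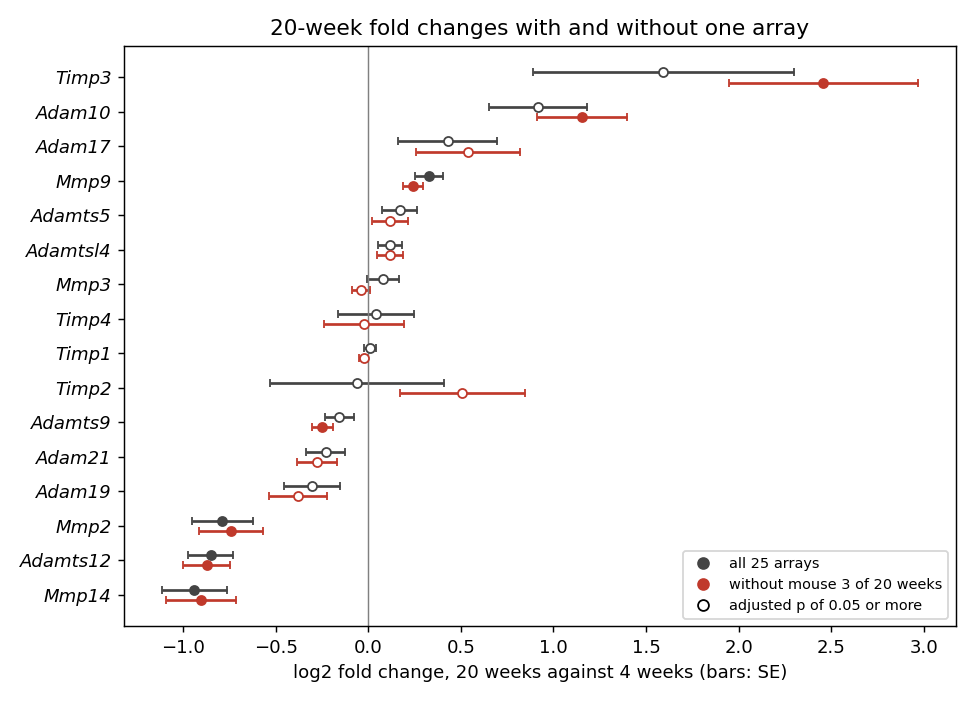
log2 fold change at 20 weeks against 4 weeks (horizontal axis, bars are SE) of the 16 named members with all 25 arrays (grey) and without mouse 3 of 20 weeks (red), where filled points have an adjusted p under 0.05. Timp3, Adam10 and Adamts9 become filled without this array, while Mmp14, Mmp2, Adamts12 and Mmp9 are filled in both. Both fits use the probe sets chosen on all 25 arrays.

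Leaving out mouse 3 of 20 weeks changed the member counts in both directions. The members that fell then numbered 5, 7, 4 and 5 at 8, 12, 16 and 20 weeks (1.68%, 3.29%, 3.23% and 2.65% of all genes), and those that rose 2, 3, 0 and 4 (5.14%, 13.3%, 4.11% and 6.23% of all genes). Without the 7 arrays of high lymph node markers 3, 4, 3 and 3 members fell (0.572%, 1.05%, 0.951% and 1.19% of all genes) and 0 rose at any age (0.236%, 2.03%, 0.357% and 0.687% of all genes).

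Most other genes of matrix turnover passed no test, and more of those that passed fell than rose. Of 43 further genes listed for activation, inhibition and substrates of these enzymes, 39 were measured and 21 expressed. At 8, 12, 16 and 20 weeks 3, 6, 7 and 4 of the 39 fell, where 0.78%, 1.36%, 1.68% and 1.52% of all genes did, and 0, 2, 1 and 1 rose, where 1.48%, 5.66%, 1.71% and 1.14% did. The other 36, 31, 31 and 34 did not pass, and the median of the 39 was -0.04, -0.04, -0.02 and 0.02. The 6 genes named next were those with the smallest adjusted p. Ctsk, the collagen-cutting cathepsin K, fell from 5.32 ± 0.54 (SD, n = 5) at 4 weeks to 4.33 ± 0.27 at 20 weeks, by 0.84, 0.96, 1.13 and 0.99 at the 4 ages (adjusted p = 0.0266, 0.00575, 0.00205 and 0.00714). Fap, the fibroblast activation protein, fell from 4.87 ± 0.72 to 3.65 ± 0.23, by 0.99, 0.94, 1.03 and 1.22 (adjusted p from 0.00426 to 0.0246). The secreted serine proteases Htra1 and Htra3 differed by -0.80 to -0.99 and -0.55 to -0.82, Htra1 passing at 12, 16 and 20 weeks and Htra3 at 8, 12 and 16 weeks. Pcolce, which enhances the cleavage of procollagen, fell at 16 and 20 weeks (-1.01 and -1.04, adjusted p = 0.0266 and 0.0271). Furin, the proprotein convertase that removes the inhibitory part of MT1-MMP, moved the other way: it rose at 12, 16 and 20 weeks by 0.54, 0.71 and 0.44 (adjusted p = 0.00908, 0.00133 and 0.0491), with 0.40 at 8 weeks (adjusted p = 0.0830).

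**Figure D5:**
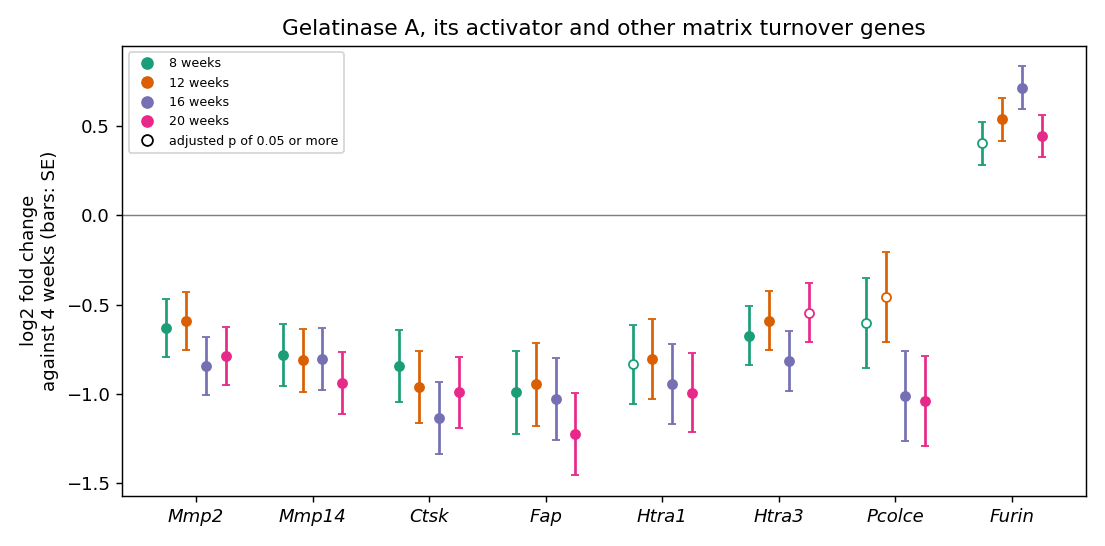
log2 fold change against 4 weeks (vertical axis, bars are SE) of Mmp2, Mmp14 and 6 other matrix turnover genes, with 1 point per later age and open points for an adjusted p of 0.05 or more. Furin lies above 0 at every age, from 0.40 to 0.71, and the other 7 genes lie between -0.46 and -1.22.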

How the data were processed

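RNA of salivary glands of 25 male mice was measured on Affymetrix arrays. The deposited log2 values, 1 per probe set and array (45101 probe sets), had been normalized by the authors with GCRMA per the methods, while RMA is the tool listed in the notes of the submitters. They were used as deposited. Of 34958 probe sets with 1 symbol, 34754 were matched to the gene table by gene ID. The 932 with several symbols (5 of them for members) and 9211 not listed were left out. For each gene the expressed probe sets were averaged, and where there were none, all of its probe sets (18194 genes, 11696 expressed). The arrays carry no read depth, and 5 mice per age limit the precision.

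All arrays were fitted together with limma 3.58.1 (R 4.3.3), without a covariate. The F-test and B-statistic (prior share 0.01) used polynomial terms of age, and contrasts compared ages, two-sided. Rose, fell, changed and passed mean a Benjamini-Hochberg adjusted p under 0.05 over all genes. The fit was tested on simulated data. Promoters were searched with Python 3.11.15. Named genes were all members called in any test, Timp1 to Timp4, Mmp2, Mmp3, Mmp9, Mmp14, Adam10 and Adam17, and the 6 called genes of smallest adjusted p of the matrix turnover list. The members and lists were chosen with earlier results of these data known. Alternatives were other probe set summaries, a filter at the median, quantile normalization, array weights, a replicate block, leaving out 1 mouse at a time and, chosen after seeing the data, leaving out the 3 arrays of lowest correlation or the 7 with a mean lymph node marker value above 4.5.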

Additional observations from a re-analysis of the deposited data

Results flagged for a closer look

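In 11 of 80 groups tested (16 named members at 5 ages), 1 mouse lay far from the other 4 by Dixon's criterion for 5 values, which chance gives in about 1 of 20 groups. In 3 of them it was mouse 3 of 20 weeks, the array of highest median (3.64), with 4.32 for Adam19, 4.62 for Adamts9 and 3.72 for Timp4. Mouse 2 of 16 weeks was low for Adam17 (4.23) and high for Adam21 (3.15). Mouse 1 of 16 weeks was high for Adamtsl4 (4.06) and for Mmp2 (5.25). The others were mouse 4 of 12 weeks for Adam10 (5.93), mouse 2 of 4 weeks for Mmp3 (2.79), and for Timp4 mouse 3 of 4 weeks (3.64) and mouse 1 of 8 weeks (3.71).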

How the results depend on the processing

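Array weights and the loss of the 3 arrays of lowest correlation made the largest differences. Members changed over the 5 ages numbered 20 with array weights, 17 without the 3 arrays, 3 with genes above the median only and 1 without the 7 arrays of high lymph node markers. The B-statistic called 8, 4, 1 and 1 in the same order. For the alternatives, the share of all genes was not counted in the F-test and B-statistic, so these numbers do not set the members apart. With array weights 6, 47, 10 and 28 members fell at 8, 12, 16 and 20 weeks (6.09%, 34.4%, 11.3% and 22.4% of all genes) and 1, 3, 1 and 7 rose (6.84%, 20.5%, 8.61% and 13.5%), and 3 rose at 16 and 20 weeks against 8 and 12 weeks. Without the 3 arrays 9, 35, 29 and 29 fell (7.15%, 23.7%, 21.4% and 19.2% of all genes), 2, 3, 2 and 6 rose (9.41%, 19.6%, 11.9% and 12.9%), and 1 rose in the late comparison. Of the 47 lower members at 12 weeks with array weights 34 were not expressed, as were 4234 of the 6253 lower genes. These 34 had a median of -0.06. The brightest probe set gave 1 lower member at 8 weeks, 2 higher at 12 and 1 higher at 16 weeks (127, 1243 and 415 of all genes). Genes above the median gave 0 higher at 12 and 2 at 20 weeks (1261 and 243 of 11696 genes). Quantile normalization gave 0 higher at 12 weeks (641 of all genes), and the 7 arrays' removal 0 higher at 12 and 20 weeks (2.03% and 0.687% of all genes). Leaving out 1 mouse gave 3 to 9 members changed, 1 to 4 by B-statistic, 1 to 5, 3 to 7, 3 to 4 and 3 to 5 lower at the 4 ages, 0 to 2, 0 to 3, 0 and 1 to 4 higher, and 0 lower and 0 to 1 higher in the late comparison. Of all 18194 genes, 85 to 305, 150 to 599, 204 to 588 and 181 to 483 were then lower at these ages. Those higher numbered 79 to 936, 444 to 2418, 151 to 747 and 97 to 1134. In the late comparison 9 to 205 of all genes were lower and 0 to 16 higher. Of 17 called fold changes, 11 passed whichever mouse was left out. Timp2 at 20 weeks turned from -0.06 to 0.71 with array weights and 0.89 without the 3 arrays, both past the threshold. A further 65 values turned sign without passing in either fit. The replicate block, for numbers that do not pair the mice (r -0.58 to 0.57 over 50 pairs, 15 above 0.1), gave 4 members changed and 2 by B-statistic, 2, 4, 3 and 3 lower and 0, 1, 0 and 1 higher, and lost 3 calls: Mmp2 at 8 weeks (-0.63) and Adam19 (-0.50) and Adamts9 (-0.26) at 12 weeks. With the replicate block 123, 230, 270 and 243 of all genes were lower at the 4 ages and 238, 953, 286 and 172 higher. Signal near the array floor limits the 40 members not expressed, and the cause of the other shifts was not tested.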
